A study of Arabidopsis thaliana with 8 samples.

Results

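Cytochrome P450 monooxygenases whose names place them outside the BR enzymes and the main glucosinolate enzymes were followed in seedlings treated with a brassinosteroid (BR) and in the auxin-overproducing *yucca* mutant. The members were the genes whose symbol in the platform annotation has the form of a P450 name (CYP, a family number, a letter and a member number), less 12 named enzymes of BR synthesis, BR inactivation, and glucosinolate and indole metabolism. This gave 23 genes of the 13513 probe sets that the annotation ties to a single symbol. Of the 23, 19 belonged to the CYP71B subfamily, and the others were *CYP51G2*, *CYP78A9*, *CYP79A2* and *CYP84A4*. None of the 12 enzymes to be left out was found under its own name in the annotation, and the RefSeq annotation of the species names 253 P450 genes. The set is therefore mostly a view of the CYP71B subfamily rather than of the superfamily. The description of the set as outside glucosinolate synthesis fails for 1 gene, since CYP79A2 makes phenylacetaldoxime, the precursor of benzylglucosinolate.

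RNA came from whole *Arabidopsis thaliana* seedlings grown in light to an age of 10 d by the labels and then kept for 2.5 h in liquid medium, either with brassinolide (BL, a highly active BR) at 1 μM or without it (mock). The 4 groups were *yucca* with BR, *yucca* mock, Columbia (Col-0) wild type (WT) with BR and WT mock, each with 2 biological replicates and 1 Affymetrix ATH1 array per replicate. The *yucca* mutant carries a highly expressed YUCCA gene, a flavin monooxygenase of auxin synthesis, and so has high auxin throughout its life rather than a timed auxin treatment. BR was compared with mock in each genotype to ask whether the 23 genes respond to BR, and the genotypes were compared to ask whether constant high auxin goes with other levels.

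P450s are haem proteins of the endoplasmic reticulum that insert an oxygen atom into small molecules with electrons passed on from a reductase. Plants use them to build sterols, hormones, phenylpropanoids, terpenoids and defence compounds, and families are named by sequence, so a shared name does not mean a shared substrate. CYP71 is the largest plant family, and most of its CYP71B members in *Arabidopsis* have no established substrate. Many of these genes lie in runs, taken here as members with at most 10 annotated genes between one and the next. There was a run of 11 members on chromosome 3 (*CYP71B16* to *CYP71B37*, AT3G26150 to AT3G26330), a run of 3 on chromosome 1 (*CYP71B27*, *CYP71B28* and *CYP71B29*) and a further run of 3 on chromosome 3 (*CYP71B5*, *CYP71B30P* and *CYP71B31*). *CYP51G2* and *CYP71B27* are annotated as transcribed pseudogenes. Neighbours of this kind can be alike in sequence, and whether a probe set binds the RNA of a neighbour was not tested.

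The deposited intensities are in arbitrary units, and the arrays of the 2 genotypes had been normalized apart. Array medians were 44.7 to 46.4 for *yucca* and 86.9 to 90.1 for WT. Comparisons of BR with mock stay within a genotype and were made on the deposited values. Comparisons of *yucca* with WT were made after all 8 arrays had been brought to 1 distribution by quantile normalization. That step evens out whole arrays but cannot remove an offset that separate normalization left in a single probe set. Such an offset cannot be told from a genotype difference, and its size was not tested. Replicate arrays correlated at r of 0.994 to 0.998 across probe sets, and the median SD between replicates was 0.07 to 0.10 on the log2 scale. A gene was called changed when limma gave a Benjamini-Hochberg adjusted *p* below 0.10 over all 22746 probe sets together with B, the log odds of a change, above 0. Because whole seedlings were used, fewer cells of a type and less RNA per cell cannot be told apart. Of 20 photosynthesis markers, *RCA* alone was measured under its own name. Its intensity after quantile normalization was 11600 to 12000 on all 8 arrays. This lies near the top of the distribution, where that normalization gives nearly equal values on every array, so it does not measure the share of shoot.

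Low signals made up a large part of the set. After quantile normalization, 10 of the 23 members had a mean in the lowest 25% of all probe sets, below an intensity of 15.9. They were *CYP71B16*, *CYP71B21*, *CYP71B24*, *CYP71B25*, *CYP71B27*, *CYP71B30P*, *CYP71B31*, *CYP71B38*, *CYP51G2* and *CYP79A2*, and their values lay between 7.55 and 15.5 on every array. At such intensities the array background takes up much of the signal. A fold change there can understate a change in RNA, or can come from background or normalization alone. The 7 members above the median were *CYP71B5*, *CYP71B6*, *CYP71B23*, *CYP71B26*, *CYP71B29*, *CYP71B34* and *CYP71B37*, exceeding the median probe set, which had an intensity of 63.5. *CYP71B22*, *CYP71B28*, *CYP71B35*, *CYP71B36*, *CYP78A9* and *CYP84A4* lay between these limits. *CYP71B22* had the widest spread, its highest array being 4.01 times its lowest, followed by *CYP71B37* at 3.17 times and *CYP71B23* at 2.53 times. *CYP71B31*, an enzyme known for oxidizing linalool in flowers, had the narrowest at 1.11 times, with 7.81 to 8.70 on the 8 arrays.

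**Figure D1:**
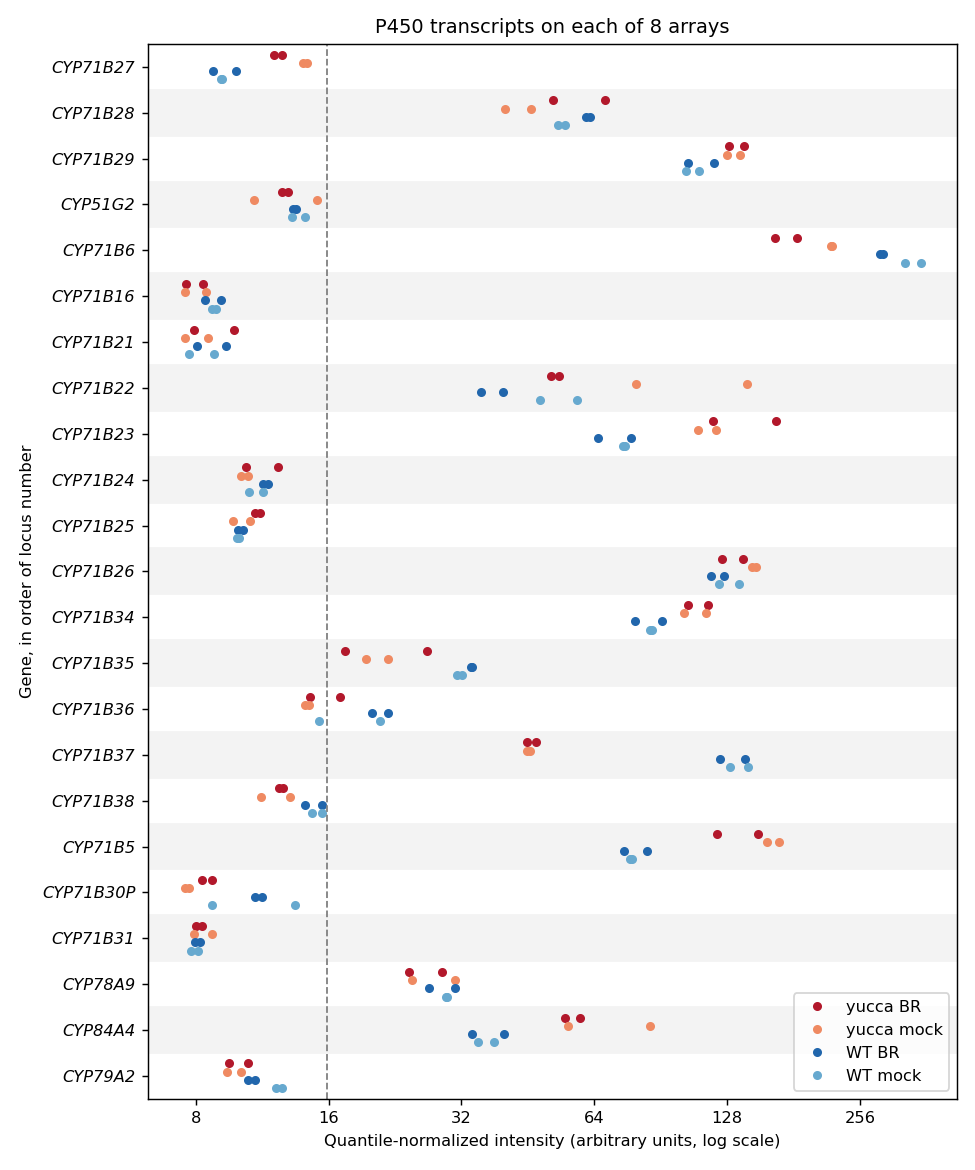
Intensity (log scale, arbitrary units, after quantile normalization over all 8 arrays) of each of the 23 P450 members on every array, with a point for each array and groups told apart by colour. *CYP71B37* separates the *yucca* arrays (45.1 to 47.3) from the WT arrays (123 to 143), and 10 members stay at or below 15.5 on every array.

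BR left the set without a called change in either genotype. In *yucca*, 0 of 23 members were called in BR-treated against mock-treated seedlings, where 3.42% of all probe sets were called, and 3 members had an unadjusted *p* below 0.05. In WT, 0 of 23 were called, where 2.15% of all probe sets were called, and 2 members had an unadjusted *p* below 0.05. A count of 0 of 23 lies near both of these backgrounds and says nothing particular about P450s. By adjusted *p* alone, 2 members passed in *yucca*, where 9.21% of all probe sets passed, and both had lower values with BR. The median log2 change of the members was 0.01 in *yucca* (0.00 for all probe sets) and 0.01 in WT (-0.01 for all probe sets). The members' changes ran from -1.03 to 0.44 in *yucca* and from -0.56 to 0.23 in WT.

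The intervals show how large a response these arrays could have missed. In WT, the 95% interval of the change stayed within 1.5-fold in either direction for 22 of 23 members, and *CYP71B22* was the exception. In *yucca*, it stayed within 1.5-fold for 17 members and within 2-fold for 22. For the 10 dim members these limits apply to the intensity and not to the RNA.

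*CYP71B22*, a member of the run of 11 with no established substrate, had the lowest values under BR relative to mock in both genotypes. Its deposited intensity was 38.5 and 36.3 in the *yucca* seedlings with BR, against 105 and 55.3 in *yucca* mock seedlings. In WT it was 54.0 and 48.1 with BR, against 67.9 and 83.2 in mock. The groups did not overlap in either genotype, but the *yucca* mock replicates lay far apart. The log2 change was -1.03 (SE 0.246) in *yucca*, where the adjusted *p* of 0.0414 from limma passed but B was -1.70, so the gene was not called. In WT it was -0.56 (SE 0.246) with an adjusted *p* of 0.424 from limma. The SE is pooled over all groups, so the gap between the *yucca* mock replicates also enters the WT test. In fits of the 2 compared groups alone, the adjusted *p* from limma was 0.0534 in WT and 0.194 in *yucca*, without a call. The adjusted *p* values therefore do not show a stronger response in *yucca*. Without *yucca* mock replicate 1 (105) the *yucca* change became -0.57, and without *yucca* mock replicate 2 (55.3) it became -1.48 and the call was made. Leaving out any other array produced no BR call among the members.

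*CYP71B6*, which converts indole-3-acetonitrile and thereby an intermediate shared with camalexin synthesis, also had non-overlapping groups. So did *CYP71B24*, *CYP71B25* and *CYP71B28* in both genotypes, and the share of such gaps among all probe sets was not counted. A gap of this kind can arise by chance with 2 arrays per group. *CYP71B6* measured 133 and 115 in *yucca* with BR, against 163 and 156 in *yucca* mock. In WT it measured 397 and 401 with BR, against 453 and 494 in mock. The log2 changes were -0.37 (SE 0.103, adjusted *p* 0.0745 from limma, B -2.61) in *yucca* and -0.25 (SE 0.103, adjusted *p* 0.386) in WT, and neither was called. *CYP71B28*, of the run on chromosome 1, had the highest value of a change in *yucca*, at 0.44 (SE 0.134, adjusted *p* 0.101 from limma), which became 0.24 without *yucca* BR replicate 1. Its intensities were 48.7 and 36.7 with BR, against 29.5 and 33.0 in mock, and in WT 85.5 and 86.7 with BR, against 75.0 and 77.7 in mock. The brassinosteroid response of the remaining members was small, with 20 of 23 changes in *yucca* and 22 of 23 in WT below 0.30 in size on the log2 scale.

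**Figure D2:**
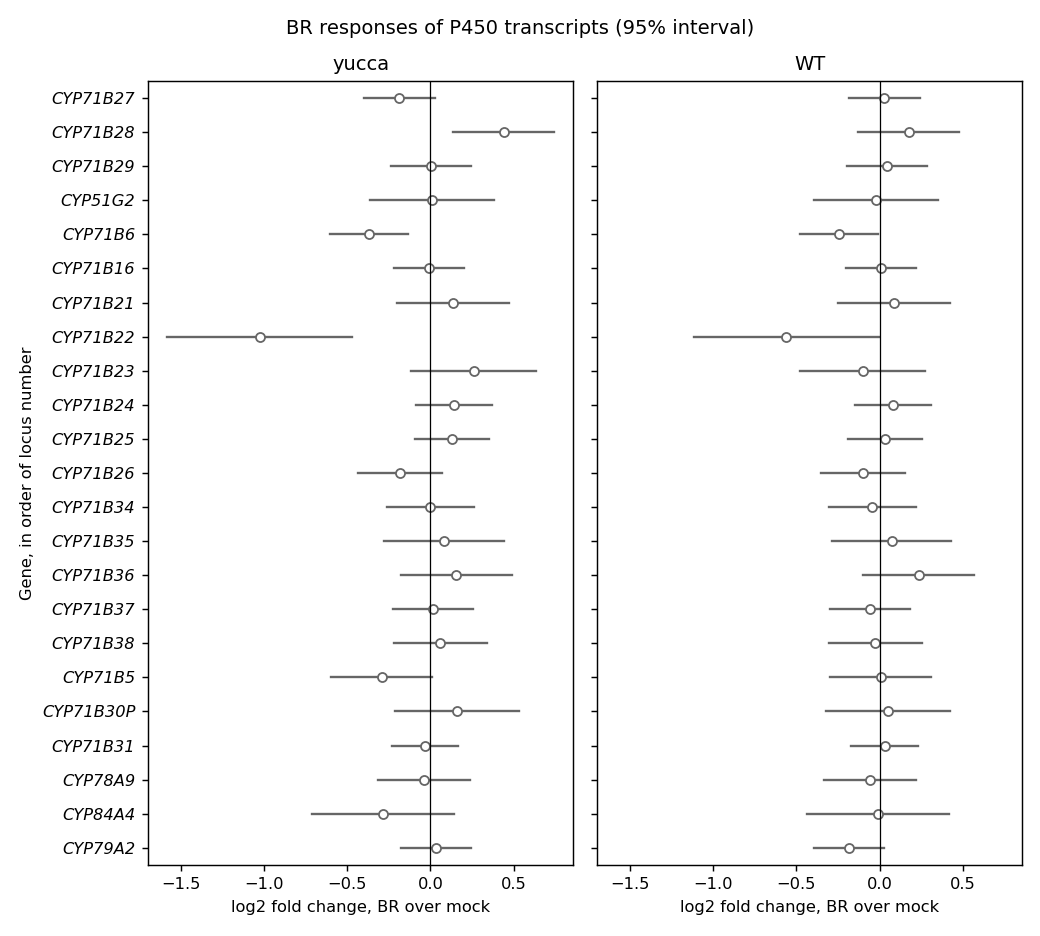
Log2 change of each of the 23 members in BR-treated against mock-treated seedlings (x axis, deposited values) with its 95% interval from limma, for *yucca* and for WT. None was called, and *CYP71B22* has the lowest estimates at -1.03 in *yucca* and -0.56 in WT.

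The BR responses of the genotypes were also compared with each other. The difference, the response of *yucca* minus that of WT, was called for 0 of 23 members and for 0.0264% of all probe sets, and 0 members had an unadjusted *p* below 0.05. Its median over the members was 0.02 on the log2 scale (0.01 for all probe sets), and it ran from -0.47 to 0.36. The lowest value was that of *CYP71B22*, with an SE of 0.348, a 95% interval of -1.25 to 0.32 and an adjusted *p* of 0.818 from limma. It rested on single arrays, being -0.0067 without *yucca* mock replicate 1 and -0.92 without *yucca* mock replicate 2. The interval stayed within 1.5-fold for 17 members and within 2-fold for 22. BR changes had the same sign in *yucca* and WT for 13 of 23 members, which is 56.5% against 58.7% of all probe sets.

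Between genotypes, single members stood apart while the set as a whole did not. Under BR, 4 of 23 members were called in *yucca* against WT (17.4%, with 16.9% of all probe sets called), of which 2 were higher and 2 lower (8.25% and 8.6% of all probe sets). Without BR, 4 of 23 were called (17.4%, with 17.4% of all probe sets called), again 2 higher and 2 lower (8.55% and 8.81% of all probe sets). Both shares lie at the background. The median log2 difference of the members was -0.03 under BR and -0.09 without BR, against -0.01 over all probe sets in each case. These comparisons share no array, but they share the separate normalization of the genotypes, the joint quantile normalization and a pooled SD. An offset from the normalization could recur in both, so they are not independent. The sign was the same in both for 22 of 23 members (95.7%), against 84.7% of all probe sets.

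*CYP71B37*, the last gene of the run of 11 on chromosome 3, showed the clearest difference. It measured 45.1 and 47.3 in *yucca* with BR, against 123 and 141 in WT with BR. Without BR it measured 45.1 and 45.9 in *yucca*, against 130.2 and 143 in WT. The 4 *yucca* arrays thus lay within a narrow band well under all 4 WT arrays. The log2 difference was -1.51 under BR (SE 0.0996, adjusted *p* 1.19e-05 from limma) and -1.59 without BR (SE 0.0996, adjusted *p* 6.6e-06), the first being 2.85-fold lower in *yucca*. It remained called under all 18 alternatives tried for each comparison. Its log2 change in BR-treated against mock-treated seedlings was 0.01 (95% interval -0.23 to 0.25) in *yucca* and -0.06 (95% interval -0.30 to 0.18) in WT.

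*CYP71B6* was the other member lower in *yucca* in both comparisons. It measured 184 and 164 in *yucca* with BR, against 288.5 and 284 in WT with BR, a log2 difference of -0.72 (SE 0.0947, adjusted *p* 0.000406 from limma). Without BR it measured 221 and 222 in *yucca*, against 324 and 352 in WT, a log2 difference of -0.61 (SE 0.0947, adjusted *p* 0.000898). All *yucca* arrays lay under all WT arrays, and each array with BR lay under both mock arrays of its genotype. The call without BR was lost when any 1 array of *yucca* mock, WT BR or WT mock was left out, and when the fit held only the 2 groups. The estimate then stayed close to its value, at -0.67 to -0.55 where a compared array was dropped. Under BR the call was lost without *yucca* BR replicate 2 (-0.63) and without either WT BR array (-0.71 and -0.73).

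*CYP71B5*, of the further run on chromosome 3, was higher in *yucca*. Under BR it measured 150.3 and 121 in *yucca*, against 74.6 and 84.5 in WT, a log2 difference of 0.77 (SE 0.119, adjusted *p* 0.000954 from limma). Without BR it measured 157.5 and 168 in *yucca*, against 77.2 and 78.0 in WT, a log2 difference of 1.07 (SE 0.119, adjusted *p* 0.000143) or 2.09-fold. Neither pair of groups overlapped. The call under BR was lost without *yucca* BR replicate 1 (log2 difference 0.61), without either array of WT BR (0.68 and 0.86) or of WT mock, and in a fit of the 2 groups alone. On the deposited values, where all probe sets shift by -0.87 in *yucca* without BR and by -0.86 under BR, *CYP71B5* was at 0.09 without BR and -0.22 under BR.

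*CYP71B23* and *CYP71B27* were each called in 1 of the 2 comparisons. *CYP71B23*, of the run of 11, measured 165 and 119 in *yucca* with BR, against 77.4 and 65.1 in WT with BR, a log2 difference of 0.98 (SE 0.153, adjusted *p* 0.000975 from limma). Without BR it measured 121 and 109.9 in *yucca*, against 74.5 and 75.3 in WT, which gave 0.62 with an adjusted *p* of 0.00959 and no call. The pseudogene *CYP71B27* was dim throughout, at 14.0 and 14.3 in *yucca* without BR, against 9.17 and 9.13 in WT, a called log2 difference of 0.63 (SE 0.0925, adjusted *p* 0.000652). Under BR it measured 12.6 and 12.1 in *yucca*, against 8.75 and 9.87 in WT, with 0.41 and an adjusted *p* of 0.00674 and no call. The call of *CYP71B23* under BR was lost without *yucca* BR replicate 1 (0.75), without WT BR replicate 2 (0.86) and without either WT mock array, and that of *CYP71B27* without any 1 of the 4 mock arrays (0.62 to 0.65). A threshold met in 1 comparison alone does not show that the genotype difference changes with BR, and the test of the difference of responses passed for neither gene. On the deposited values both genes turned negative or close to 0, at -0.37 for *CYP71B23* and -0.085 for *CYP71B27* without BR, and at -0.0036 and -0.30 under BR. With 16 added to each intensity both calls were lost, at 0.84 for *CYP71B23* under BR and 0.26 for *CYP71B27* without BR.

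**Figure D3:**
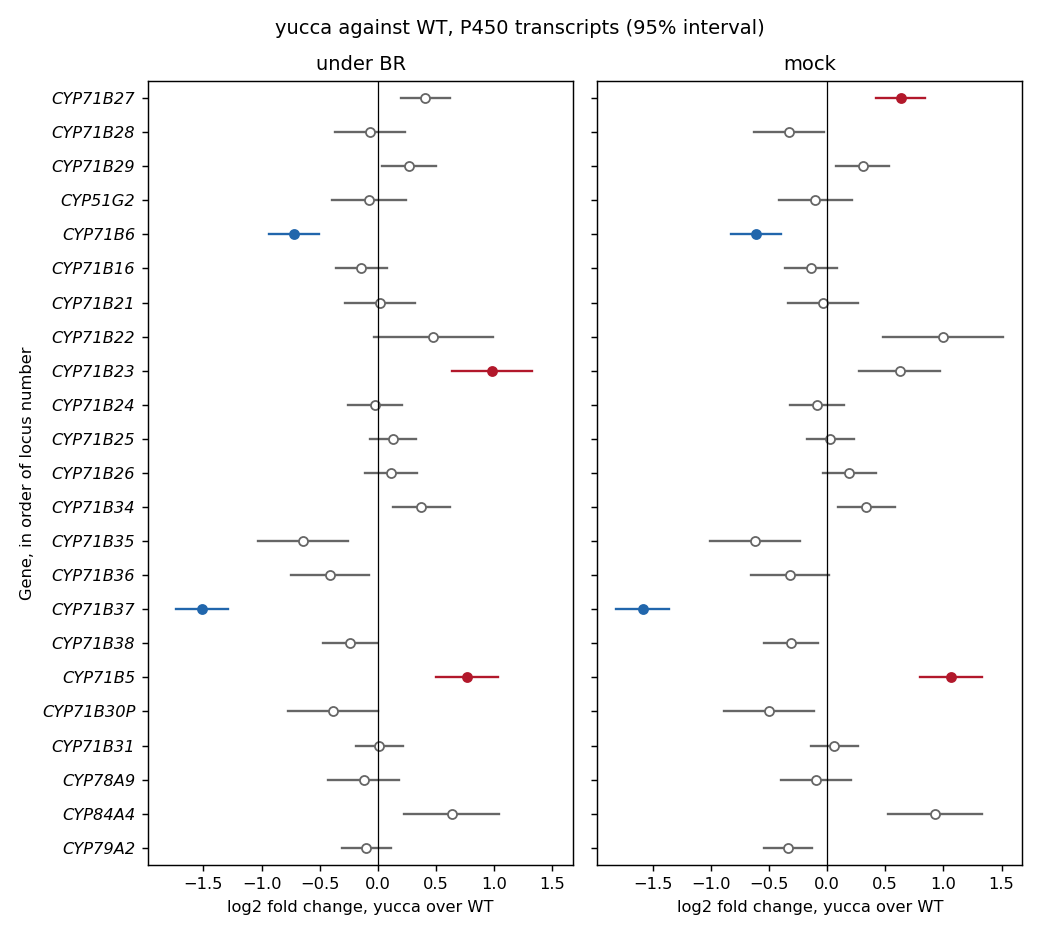
Log2 difference of each of the 23 members in *yucca* against WT (x axis, quantile-normalized values) with its 95% interval from limma, under BR and without BR. *CYP71B37* lies lowest at -1.51 under BR and -1.59 without BR, while *CYP71B5* and *CYP71B23* lie on the other side.

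Most members had non-overlapping groups without BR, whether called or not. With 2 arrays per group, such a gap can arise by chance, and its share among all probe sets was not counted. It does not single out the members below. Uncalled members with such a gap without BR also included *CYP71B16*, *CYP71B24*, *CYP71B26*, *CYP71B28*, *CYP71B29*, *CYP71B30P*, *CYP71B34*, *CYP71B36*, *CYP71B38* and *CYP79A2*. *CYP84A4*, an enzyme of arabidopyrone synthesis from phenylpropanoids, measured 54.9 and 59.5 in *yucca* with BR, against 40.0 and 33.9 in WT with BR. Without BR it measured 85.5 and 56.0 in *yucca*, against 37.9 and 34.9 in WT. The log2 differences were 0.63 and 0.93, with adjusted *p* of 0.0184 and 0.00293 from limma, and B was below 0 in both. The difference without BR was called, at 1.23, when *yucca* mock replicate 2 was left out, and the difference under BR was called when either *yucca* mock array was left out, with its value unmoved. *CYP71B22* measured 53.3 and 51.2 in *yucca* with BR, against 39.8 and 35.4 in WT with BR, and 142 and 79.5 in *yucca* mock, against 48.3 and 58.6 in WT mock. Its log2 differences were 0.48 under BR (adjusted *p* 0.118) and 1.00 without BR (adjusted *p* 0.00663, B -1.81). The difference without BR became 0.58 without *yucca* mock replicate 1, and 1.42 with a call without *yucca* mock replicate 2. *CYP71B35* measured 26.8 and 17.4 in *yucca* with BR, against 33.6 and 33.9 in WT with BR, with a log2 difference of -0.64 (adjusted *p* 0.0145). This became -0.96 with a call without *yucca* BR replicate 1, and -0.33 without *yucca* BR replicate 2. Without BR it was at -0.62 and was called when either *yucca* BR array was left out. Counted by adjusted *p* alone, 12 members passed under BR and 14 without BR, where 53.3% and 53.5% of all probe sets passed.

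*CYP78A9*, known for promoting fruit and seed growth when overexpressed, had 29.0 and 24.3 in *yucca* with BR, against 27.1 and 30.9 in WT with BR, and 31.0 and 24.8 in *yucca* mock, against 29.5 and 29.7 in WT mock. Its groups overlapped under both conditions. *CYP79A2* had 10.5 and 9.50 in *yucca* with BR, against 10.9 and 10.5 in WT with BR, and 10.1 and 9.43 in *yucca* mock, against 12.5 and 12.2 in WT mock. The log2 difference without BR was -0.34 (adjusted *p* 0.0162 from limma) and was not called. *CYP51G2*, a paralogue of the sterol 14-demethylase gene, had 12.5 and 12.9 in *yucca* with BR, against 13.3 and 13.5 in WT with BR, and 10.9 and 15.1 in *yucca* mock, against 14.2 and 13.3 in WT mock.

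Members of a run did not differ between genotypes as 1 block. In the run of 11 on chromosome 3, *CYP71B37* was lower and *CYP71B23* higher in *yucca* under BR, and the other 9 were not called. Without BR, *CYP71B37* alone was called and the other 10 were not. With 16.9% of all probe sets called under BR and 17.4% without BR, these counts say nothing particular about the run. *CYP71B16*, *CYP71B21*, *CYP71B24* and *CYP71B25* were dim, where a difference in RNA could be missed. *CYP71B34*, *CYP71B35*, *CYP71B36* and *CYP71B37* follow each other with no annotated gene between them. *CYP71B34* had a log2 difference of 0.33 without BR, against -0.62 for *CYP71B35*, -0.32 for *CYP71B36* and -1.59 for *CYP71B37*. Under BR the values were 0.37, -0.64, -0.41 and -1.51 in the same order. *CYP71B35*, *CYP71B36* and *CYP71B37*, which are adjacent, thus had lower values in *yucca* in both comparisons, though only *CYP71B37* was called. In the run of *CYP71B5*, *CYP71B30P* and *CYP71B31*, the first was called higher in both comparisons, while *CYP71B30P*, next to it, was at -0.39 under BR (adjusted *p* 0.0924 from limma) with 8.26 and 8.71 in *yucca*, against 11.3 and 10.9 in WT, and at -0.50 without BR (adjusted *p* 0.0389) with 7.57 and 7.72 in *yucca*, against 8.70 and 13.5 in WT. The last difference was -0.82 and called when WT mock replicate 1 was left out.

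**Figure D4:**
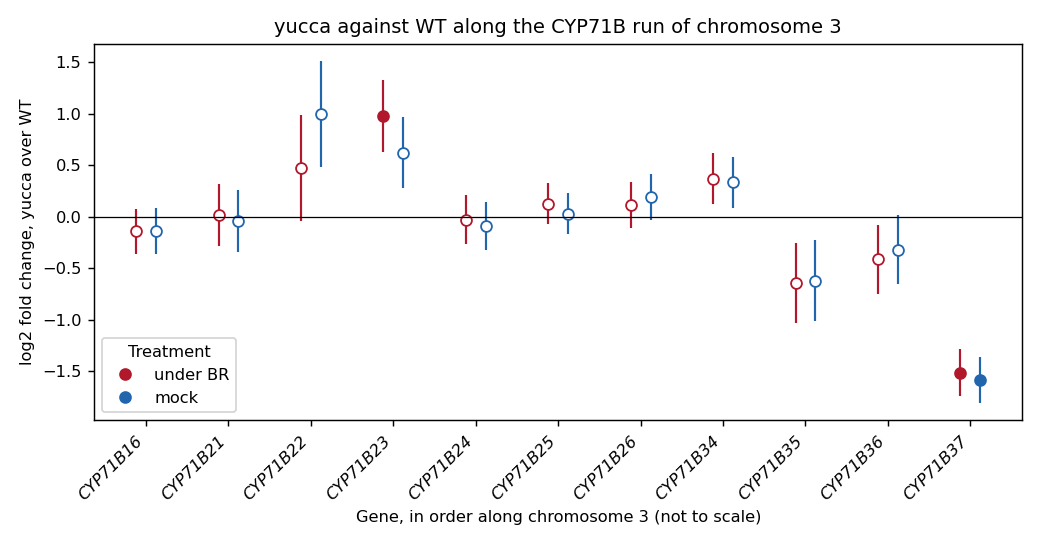
Log2 difference in *yucca* against WT (y axis, quantile-normalized values, 95% intervals from limma) for the 11 CYP71B members of the run on chromosome 3, in their order along the chromosome (x axis), under BR and without BR. Only *CYP71B37*, at the end of the run, was called in both comparisons, and values of both signs stand side by side.

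Some root markers had other values in *yucca*. Of 21 root markers 3 were measured, and their summed intensity was 5100 and 4920 in *yucca* with BR, 4720 and 4630 in *yucca* mock, 4700 and 4360 in WT with BR, and 5250 and 4640 in WT mock. The sum was carried by the root and hypocotyl glucosidase gene *PYK10*, with 4150 to 4980 on the 8 arrays. The root hair expansin genes had lower values in *yucca*, with log2 differences of -0.77 under BR and -0.82 without BR for *EXPA7*, and -1.38 and -1.53 for *EXPA18*. No defining marker was at 0, but even the dimmest P450 members stayed at 7.55 or above, so this is no test of an organ's presence. The part of separate normalization, root hairs or organ proportions in the differences of *CYP71B37*, *CYP71B6*, *CYP71B5*, *CYP71B23* and *CYP71B27* was not tested.

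Little can be said of P450 pathways from these names. Of 97 P450s and redox partners in 17 lists by role, 4 were measured, all of them members already described. These were *CYP71B6* among 10 genes of camalexin and other defence, *CYP84A4* among 7 of phenylpropanoid synthesis, *CYP78A9* among 6 of its subfamily and *CYP79A2* among 4 other CYP79 genes. In each of these lists the called count was 0 for BR against mock in either genotype, and *CYP71B6* was the single called gene between genotypes. The other 13 lists, redox partners included, had 0 genes measured under their own names.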

How the data were processed

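RNA of *yucca* and WT seedlings was measured on 8 Affymetrix ATH1 arrays, 2 per group. The deposited intensities, on a linear scale, come from rma (Bioconductor affy), by which the authors corrected background, normalized by quantiles and summarized probes. Equal values recur between arrays of a genotype and hardly between genotypes, from which separate normalization was read. Log2 values of 22746 probe sets, 64 controls left out, entered a limma model (version 3.58.1, R 4.3.3) of 4 group means over all arrays, with an assumed changed proportion of 0.01 for B. Tests were checked on simulated data. The arrays, 2 per group, limit precision, and depth has no counterpart here. Names came from the platform annotation, and neighbours from RefSeq. Members, lists and tests were chosen with earlier results of these data known. Every member was named, with array values for those called, those outside CYP71B and some of the others. Alternatives were other normalizations, 16 added to intensities, thresholds, a filter on the lowest 25%, an intensity trend, fits of 2 groups, a replicate block and each array left out.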

Additional observations from a re-analysis of the deposited data

How the results depend on the processing

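The number of arrays limits these results, and 10 dim members carry little signal over background. No BR call in WT and no call on the difference of responses appeared under any alternative tried. With adjusted *p* alone, BR in *yucca* had 2 members lower. With adjusted *p* alone, *yucca* against WT had 6 higher and 6 lower under BR and 7 higher and 7 lower without BR. On the values as deposited, which shift all probe sets down in *yucca*, both comparisons had 0 higher and 15 lower. Of all 22746 probe sets, 15352 were called lower under BR and 15356 without BR, so this count says nothing particular about P450s. There, log2 differences without BR were -0.37 for *CYP71B23*, -0.085 for *CYP71B27* and -0.018 for *CYP84A4*. Those under BR were -0.45 for *CYP71B22*, -0.0036 for *CYP71B23*, -0.30 for *CYP71B27*, -0.22 for *CYP71B5* and -0.29 for *CYP84A4*. With 16 added to each intensity, 1 member was higher in either comparison. With array medians set equal, 3 were higher under BR, *CYP71B27* being added (0.66). Without the dimmest 25%, 1 was higher without BR. In fits of the 2 groups alone, 0 were higher under BR and 1 was lower without BR.

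Leaving out each array in turn gave 0 to 3 higher and 1 to 3 lower under BR, 1 to 3 higher and 1 to 3 lower without BR, and 0 higher and 0 to 1 lower for BR in *yucca*. Replicate numbers are shared between groups but not stated to pair samples. Deviations of same-numbered arrays correlated at 0.225 in WT and 0.407 in *yucca*, and at -0.124 to -0.0716 between genotypes. With a replicate block, 2 were higher and 2 lower under BR, 3 higher (*CYP84A4* added) and 2 lower without BR, and BR gave 0 calls in either genotype. Numbers crossed in *yucca*, an alternative chosen after seeing the data, gave 2 higher and 2 lower in both comparisons. A fit of 2 groups was not run for the difference of responses, which needs all 4.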

Other observations

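*CYP718*, whose name has no subfamily letter and so falls outside the set, is also a P450 and was singled out after its values had been seen. Its deposited intensity was 49.6 and 40.3 in *yucca* with BR, against 34.1 and 31.6 in *yucca* mock, a log2 change of 0.44 (adjusted *p* 0.0581 from limma, B -2.22) that was not called. In WT it was 281 and 298 with BR, against 162 and 173 in mock, a called change of 0.79 (SE 0.116, adjusted *p* 0.00712 from limma). The responses differed by -0.34, *yucca* minus WT, with an adjusted *p* of 0.676. After quantile normalization it was lower in *yucca* under BR (log2 difference -1.72, adjusted *p* 9.67e-06 from limma) and without BR (-1.38, adjusted *p* 2.12e-05).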
